A study of Mus musculus with 78 samples.

Results

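Amacrine cells sorted from the Fam81a and Ier5 mouse lines were compared with amacrine cells sorted from the Arc line in the adult retina. The comparison covered 9 of the 78 arrays of the series: 3 arrays titled Fam81a, 3 titled Ier5 and the 3 titled Arc 1st, all labelled batch 1. These arrays were chosen by measured values: Fam81a and Ier5 because their level of the glycine transporter gene Slc6a9 is raised, and Arc 1st because its level of the GABA-synthesis gene Gad1 is higher. Expression was measured with whole-transcript Affymetrix arrays on RNA of 200 sorted cells per sample, and every probe set with a single gene symbol was considered, which gave 19301 genes.

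All 3 lines carry enhanced green fluorescent protein from a bacterial artificial chromosome transgene, and the label of a line names the gene whose regulatory sequence drives it: Tg(6430514L14Rik-EGFP)95Gsat for Fam81a, Tg(Ier5-EGFP)267Gsat for Ier5 and Tg(Arc-EGFP)194Gsat/Mmcd for Arc. The genetic background of all 3 is mixed, from C57BL/6J and a hybrid of FVB/N with Swiss Webster mice. The founder stock carries a recessive mutation that leads to loss of photoreceptors, and per the labels' protocols it was crossed back into C57BL/6J and the second generation was used. No treatment is named, and animal ages are given only as adult. The retina was dissociated with papain for 15 min, and cells were gated on fluorescence, size and pulse width, so each sample holds whatever mixture of cells carried the green protein. The labels call the 3 arrays of a set biological replicates, without saying whether animals were pooled.

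Amacrine cells are inhibitory interneurons of the inner retina, and most types release either GABA or glycine. Glycinergic cells take up glycine through the transporter encoded by Slc6a9, GABAergic cells make GABA with the enzymes encoded by Gad1 and Gad2, and both kinds fill their vesicles through the transporter encoded by Slc32a1. Glycinergic types are mostly narrow in their field and link the sublayers of the inner plexiform layer. The best known is the AII cell, which passes rod signals to the cone pathway, whereas many GABAergic types spread widely within a sublayer.

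The genes that chose the arrays are given as a description, with no test. Slc6a9 read 161, 89.1 and 122 on the Fam81a arrays, 69.8, 56.6 and 29.4 on the Ier5 arrays and 7.33, 7.85 and 8.28 on the Arc 1st arrays, in the linear intensity units of the deposited table. Each of the 6 arrays lay above each Arc array, and Arc stayed below 9.01, the median of all values of the table. Gad1 read 26.8, 23.5 and 18.2 in Fam81a, 37.2, 26.4 and 20.7 in Ier5 and 80.4, 125 and 121 in Arc 1st. Gad2 read 9.82, 18.6 and 17.6 in Fam81a, 44.1, 41.1 and 29.0 in Ier5 and 160, 133 and 95.8 in Arc 1st. In the lines with raised Slc6a9, Gad1 lay above the median on all 6 arrays, while Gad2 on the Fam81a array 1 stood close to it. Ier5 held more Gad2 than Fam81a on every array. In the mean of both lines over Arc 1st, Slc6a9 differed by 3.29 log2 units, Gad1 by -2.10 and Gad2 by -2.43. Slc32a1, the vesicular transporter shared by both transmitters, lay between 483 and 617 on all 9 arrays, with set means of 531, 575 and 520. Slc6a5, the glycine transporter of spinal and brainstem neurons, lay between 5.37 and 12.3, and its set means were all below the median. Slc6a11, Slc6a13, Abat and Aldh5a1, which take up or break down GABA, had set means between 5.06 and 12.6. The related transporter gene Slc6a12, not among the genes listed for this check, was called higher in Fam81a and Ier5 (1.24 raised to the floor).

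**Figure D1:**
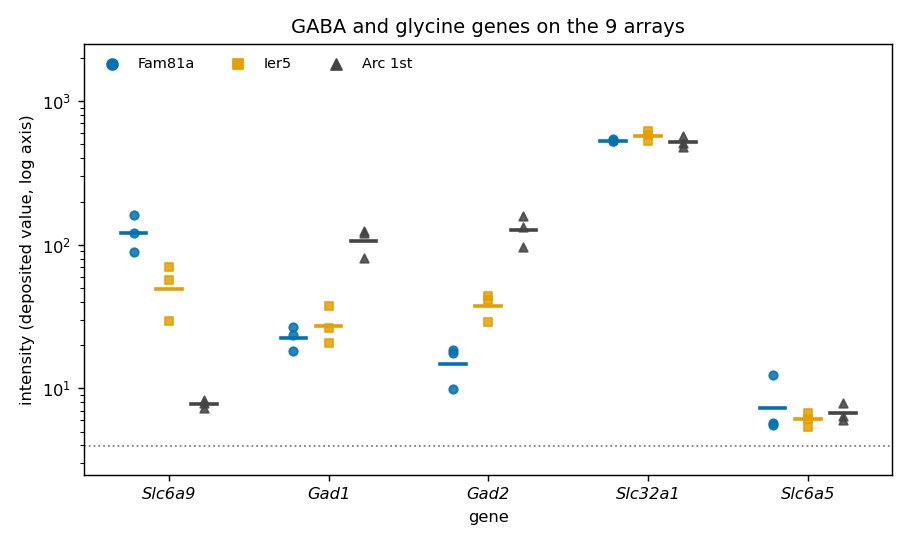
Intensity of 5 genes of GABA and glycine handling (log axis) on the 3 Fam81a, 3 Ier5 and 3 Arc 1st arrays; points are arrays, bars are geometric means and the dotted line is the floor of 3.99. Slc6a9 chose the lines and separates them from Arc 1st, as Gad1 and Gad2 do the other way round, while Slc32a1 lies between 483 and 617 on every array.

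The labelled cell class was checked against other amacrine genes. Pax6, a transcription factor kept by adult amacrine cells, had set means of 175, 183 and 219, and its arrays overlapped. Of 12 tested genes of a general amacrine list 3 were lower in Fam81a and Ier5, none was higher, and the rest did not pass. Over all tested genes 1.2% were lower and 0.874% higher. Several defining markers of other retinal cells, picked after their values were seen, were near background, but other genes of the marker lists were brighter. The cone gene Arr3 lay below the floor on all 9 arrays, and the rod genes Rcvrn and Sag lay at or below it on 7 of 9. Sag read 39.1 and 20.5 on the Arc 1st arrays 2 and 3. Rcvrn read 16.4 on the Fam81a array 3 and 9.67 on the Arc 1st array 3. Rbpms of ganglion cells, Vsx1 of bipolar cells and Csf1r of microglia had set means between 7.06 and 11.2. Chat of starburst cells read only 9.17 in the ChAT starburst line itself, so its low level here is not informative. Slc18a3, which read 1527 in the ChAT line, had set means of 10.8, 9.12 and 8.60. Some rod genes were present: Prph2 read 80.8, 103 and 81.5 in Fam81a, 78.7 on the Ier5 array 2, 51.4 on the Arc 1st array 3 and below the floor on the other 4 arrays. Pdc read 171, 82.2 and 111 in Fam81a, 81.3, 84.85 and 53.8 in Ier5 and 62.5, 5.20 and 64.6 in Arc 1st. The summed level of 13 rod genes was 247 to 340 in Fam81a, 89.9 to 232 in Ier5 and 97.4 to 178 in Arc 1st, so it was highest in Fam81a, and its part in the results was not tested. In these sorted pools, fewer cells of a type and less RNA per cell cannot be told apart.

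Of 11211 genes tested, 98 were higher in the mean of Fam81a and Ier5 than in Arc 1st (0.874%) and 135 were lower (1.2%). A gene was tested if its mean in at least 1 of the 3 sets lay above the table's median, and it was called when limma's adjusted p fell below 0.05 and the difference reached 1 log2 unit, which is 2-fold. The 6 Fam81a and Ier5 arrays lay above all 3 Arc 1st arrays for 407 tested genes (3.63%) and below them for 481 (4.29%). Of the called genes, 91 of the 98 higher and 127 of the 135 lower ones had such separated arrays. The difference reached 2 log2 units for 39 higher and 50 lower genes, and 3 log2 units for 8 higher and 19 lower genes. In 195 of the 233 called genes each line on its own moved by at least 1 log2 unit from Arc 1st in the same direction, and in the other 38 it did not. Because the arrays were chosen on transmitter genes, any gene that varies with transmitter type among amacrine cells can differ through that choice, and the tests compare these lines only. The counts depended on the Arc arrays: without Arc 1st replicate 1, 2 or 3 the higher genes numbered 56, 55 and 63, and without replicate 2 the lower genes numbered 86.

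The gene with the largest positive difference was Spink13, which encodes a secreted inhibitor of serine proteases. It read 676, 714 and 766 in Fam81a, 175, 407 and 535 in Ier5 and 4.16, 3.84 and 4.26 in Arc 1st, a difference of at least 6.89 log2 units with values raised to the floor (SE 0.33, limma adjusted p = 3.8e-06). Beside differences raised to the floor, here and below, SE and adjusted p are those of the fit to deposited values. The Arc 1st arrays were all about at the floor and 1 of them lay under it. Spink13 was thus bright in both lines and close to undetected in Arc. Nfix and Nfib encode transcription factors of the nuclear factor I family. Nfix read 538, 462 and 374 in Fam81a, 988, 1260 and 1401 in Ier5 and 30.5, 33.5 and 24.0 in Arc 1st (4.67, SE 0.21, adjusted p = 2.8e-06). Nfib read 152, 78.3 and 59.8, then 118, 112 and 289, against 7.92, 5.04 and 11.6 (3.93, SE 0.42, adjusted p = 0.00096). Both were higher on each of the 6 arrays, while the family member Nfia, with set means of 8.18, 8.93 and 10.2, did not pass (adjusted p = 0.72).

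Calb2, the calcium-binding protein calretinin that is a standard label of AII cells, read 265, 119 and 94.2 in Fam81a, 166, 254 and 164 in Ier5 and 7.16, 7.90 and 8.49 in Arc 1st (4.40, SE 0.34, adjusted p = 0.00011). Calb1, or calbindin, read 68.0, 75.6 and 80.6 in Fam81a, 12.4, 12.6 and 27.3 in Ier5 and 3.60, 5.92 and 3.96 in Arc 1st, where 2 arrays lay under the floor (at least 2.93 raised to the floor, SE 0.28, adjusted p = 0.00036). Hpca, the neuronal calcium sensor hippocalcin, had set means of 91.5, 232 and 19.1 (2.93, SE 0.24). All 3 calcium-binding genes were separated from Arc 1st on every array, but Calb1 was led by Fam81a and Hpca by Ier5. Crabp1, which binds retinoic acid in the cytoplasm, read 677, 442 and 231, then 1061, 1348 and 1585, against 30.0, 50.5 and 30.3 in Arc 1st (4.36, SE 0.33). Cacna2d3, an accessory subunit of voltage-gated calcium channels, read 94.6, 86.7 and 66.8, then 96.0, 81.8 and 130, against 7.48, 7.57 and 9.31 (3.49, SE 0.23). The lines were nearly level for Cacna2d3. For Crabp1 each Ier5 array lay above each Fam81a array, but the difference between the lines did not pass (-1.68, adjusted p = 0.15).

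The other 4 of the 12 largest positive differences were Kcnmb4, Socs2, Lamp5 and Htra1. Kcnmb4, an accessory subunit of calcium-activated potassium channels, read 19.5, 23.3 and 24.0 in Fam81a, 254, 499 and 486 in Ier5 and 9.29, 8.51 and 8.88 in Arc 1st (3.40, SE 0.26). Most of its difference came from Ier5. Socs2, a suppressor of cytokine signalling, had set means of 60.5, 233 and 13.8 (3.11, SE 0.39). Lamp5, a membrane protein of neuronal endosomes, had set means of 530, 256 and 49.3 (2.90, SE 0.27), and Htra1, a secreted serine protease, had 217, 269 and 33.0 (2.87, SE 0.42). Each of the 4 was separated from Arc 1st on all arrays.

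Among the genes far lower in both lines was Pantr1, a long non-coding RNA transcribed next to the transcription factor gene Pou3f3. It read 4.70, 3.87 and 3.56 in Fam81a, 6.47, 8.04 and 5.28 in Ier5 and 443, 225 and 132 in Arc 1st (-5.50 raised to the floor, SE 0.33, limma adjusted p = 2.0e-05). Because 2 of its Fam81a arrays lay under the floor, this is the least difference the values allow. Pou3f3 itself had set means of 8.81, 12.3 and 9.28 and did not pass (adjusted p = 0.81). Cbln1 and Cbln2 encode cerebellins, secreted proteins that bridge synapses. Cbln1 read 5.57, 6.33 and 6.15, then 4.94, 3.75 and 3.52, against 245, 188 and 175 in Arc 1st (-5.30 raised to the floor, SE 0.18, adjusted p = 6.6e-07), again a bound, with 2 Ier5 arrays under the floor. Cbln2 read 13.7, 60.5 and 29.7, then 110, 17.6 and 15.0, against 1265, 836 and 553 (-4.80, SE 0.67, adjusted p = 0.0044). Cbln1 was bright in Arc 1st and near the floor on the 6 arrays, whereas Cbln2 was bright in Arc and scattered at low levels elsewhere.

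Igfbp2, a secreted binding protein of insulin-like growth factors, read 11.5, 18.9 and 14.6 in Fam81a, 42.8, 22.1 and 16.6 in Ier5 and 784, 656 and 796 in Arc 1st (-5.27, SE 0.32). Ucma, a secreted matrix protein first known from cartilage, read 6.36, 6.66 and 5.36, then 5.61, 5.20 and 4.54, against 382, 171 and 187 (-5.37, SE 0.26). Wfikkn2, a secreted protein that binds myostatin and related growth factors, read 6.17, 5.81 and 5.87, then 9.58, 10.98 and 5.99, against 278, 286 and 257 (-5.26, SE 0.22). These 3 secreted proteins were bright on every Arc 1st array and on none of the others. Gng8, a gamma subunit of G proteins, had set means of 7.17, 7.77 and 160 (-4.43, SE 0.23). Pcbd1, which recycles the pterin cofactor of aromatic amino acid hydroxylases, had 27.7, 11.96 and 335 (-4.20, SE 0.50).

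The remaining 4 of the 12 were Clmp, Slc51a, Vwc2 and Marcks. Clmp, a cell adhesion molecule of tight junctions, had set means of 17.2, 7.63 and 140 (-3.61, SE 0.29). Slc51a, a subunit of the organic solute transporter, had 7.25, 9.63 and 94.1 (-3.49, SE 0.34), and Vwc2, a secreted antagonist of bone morphogenetic proteins, had 15.7, 22.9 and 194 (-3.35, SE 0.47). Marcks, an actin-binding substrate of protein kinase C, differed in kind, since it was bright in Ier5 too: it read 34.6, 136 and 68.5 in Fam81a, 441, 349 and 204 in Ier5 and 1430, 1423 and 1531 in Arc 1st (-3.31, SE 0.39).

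**Figure D2:**
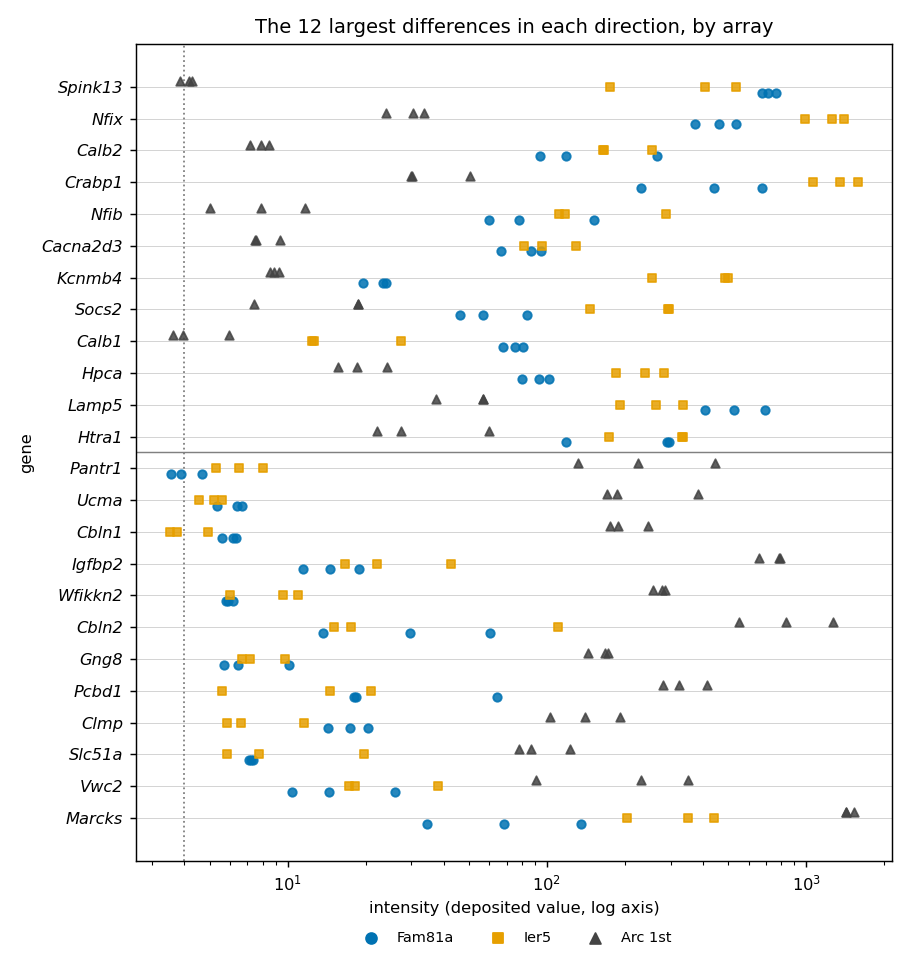
Intensity by array (log axis) of the 12 genes with the largest positive and the 12 with the largest negative difference between the mean of Fam81a and Ier5 and Arc 1st, above and below the grey line; circles are Fam81a, squares Ier5, triangles Arc 1st, and the dotted line is the floor of 3.99. The arrays of these genes do not overlap by the rule that chose them; Of the 24, Nfix, Kcnmb4 and Calb1 were also called between Fam81a and Ier5.

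Nfix and Nfib of the nuclear factor I family were higher, and Tfap2a and Tfap2b of the AP-2 family lower, in Fam81a and Ier5, while Nfia and Tfap2c did not pass. The AP-2 gene Tfap2e, outside the gene lists, was called lower too (-1.15 raised to the floor). Promoters of the first 3 genes in each direction that have a single annotated window were searched for the letters both families are known to bind. The genes and motifs were picked after the values were seen. The sequences are the 250 bases before the annotated start, from RefSeq on GRCm38.p6, read 5′ to 3′ on the gene's strand. Capitals mark TTGGC or its reverse complement GCCAA (nuclear factor I) and GCCNNNGGC (AP-2, the same on either strand). The first 3 belong to genes higher in Fam81a and Ier5: Crabp1 on chr9:54764498-54764747, plus strand, Cacna2d3 on chr14:29721865-29722114, minus strand, and Kcnmb4 on chr10:116473524-116473773, minus strand. The last 3 belong to genes lower in them: Ucma on chr2:4975872-4976121, plus strand, Wfikkn2 on chr11:94242580-94242829, minus strand, and Gng8 on chr7:16891536-16891785, plus strand.
Crabp1: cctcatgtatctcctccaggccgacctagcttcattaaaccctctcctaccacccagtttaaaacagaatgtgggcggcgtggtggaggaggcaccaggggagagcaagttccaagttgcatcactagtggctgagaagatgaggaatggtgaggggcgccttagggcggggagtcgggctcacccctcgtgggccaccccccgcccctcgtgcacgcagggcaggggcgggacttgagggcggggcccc
Cacna2d3: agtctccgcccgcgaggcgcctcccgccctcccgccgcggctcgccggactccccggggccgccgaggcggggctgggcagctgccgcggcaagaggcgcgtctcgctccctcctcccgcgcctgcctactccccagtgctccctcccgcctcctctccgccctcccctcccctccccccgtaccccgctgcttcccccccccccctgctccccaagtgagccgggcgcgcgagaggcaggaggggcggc
Kcnmb4: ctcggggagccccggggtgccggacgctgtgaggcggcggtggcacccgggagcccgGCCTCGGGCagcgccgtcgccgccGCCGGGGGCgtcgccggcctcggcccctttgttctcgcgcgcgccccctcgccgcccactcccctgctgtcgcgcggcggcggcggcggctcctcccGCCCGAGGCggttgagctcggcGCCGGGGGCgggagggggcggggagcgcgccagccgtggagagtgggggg
Ucma: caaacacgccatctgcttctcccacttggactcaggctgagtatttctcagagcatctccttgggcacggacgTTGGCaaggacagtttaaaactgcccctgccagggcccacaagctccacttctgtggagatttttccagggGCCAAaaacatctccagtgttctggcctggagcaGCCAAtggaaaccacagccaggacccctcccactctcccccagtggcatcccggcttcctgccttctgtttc
Wfikkn2: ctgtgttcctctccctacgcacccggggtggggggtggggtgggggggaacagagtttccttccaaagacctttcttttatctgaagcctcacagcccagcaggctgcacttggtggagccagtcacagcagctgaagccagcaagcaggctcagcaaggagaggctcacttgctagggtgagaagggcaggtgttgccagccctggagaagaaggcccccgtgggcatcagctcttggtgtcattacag
Gng8: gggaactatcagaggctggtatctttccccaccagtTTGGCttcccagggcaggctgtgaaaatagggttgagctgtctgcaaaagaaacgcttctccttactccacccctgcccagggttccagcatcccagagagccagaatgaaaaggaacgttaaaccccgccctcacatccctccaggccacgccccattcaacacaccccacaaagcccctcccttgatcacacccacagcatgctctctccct
The nuclear factor I letters occurred 3 times in the Ucma window and at 1 place in the Gng8 window, and were not in the other 4. The AP-2 letters occurred at 4 places in the Kcnmb4 window and in none of the other 5. No matches overlapped. Among 32851 annotated windows of 250 bases, 41.5% held the nuclear factor I letters and 13.7% the AP-2 letters. Base composition differed, from 56.0% G and C in Gng8 to 83.6% in Kcnmb4. A match describes letters only, and binding was not measured.

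Transcription factors moved in both directions. Of 54 tested factors of a list of amacrine regulators, 6 were higher and 5 were lower, against 2.08% called among all tested genes. The median difference over the list was 0.10 log2 units, against 0.012 over all genes tested. Apart from Nfix and Nfib, the higher ones were Nr2f2, Neurod4, Prox1 and Neurod2. Nr2f2, the nuclear receptor also called COUP-TFII, read 52.2, 50.5 and 55.7 in Fam81a, 56.8, 40.7 and 77.99 in Ier5 and 10.05, 13.4 and 11.6 in Arc 1st (2.23, SE 0.24, adjusted p = 0.00094). Neurod4 and Neurod2, factors with a basic helix-loop-helix domain, had set means of 37.9, 25.1 and 5.18 (2.55 raised to the floor, SE 0.38) and of 35.0, 31.7 and 15.3 (1.12, SE 0.20). Prox1, a homeodomain factor present in AII cells, was dim throughout, at 9.73, 11.95 and 4.90, and passed narrowly (1.14, SE 0.25, adjusted p = 0.049). Its mean in Arc 1st lay below the brightness limit, and with no filter the call was lost (adjusted p = 0.065). The lines were close to each other for all 4 of these factors.

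The lower factors included both AP-2 genes most used as amacrine labels. Tfap2b read 70.5, 70.2 and 86.2 in Fam81a, 28.8, 15.3 and 12.6 in Ier5 and 326, 267 and 339 in Arc 1st (-3.08, SE 0.29, adjusted p = 0.00036). Tfap2a read 9.57, 10.5 and 24.9, then 13.9, 12.2 and 6.06, against 73.7, 95.3 and 65.3 (-2.72, SE 0.36). Tfap2b was thus graded, with Fam81a between Ier5 and Arc. The third AP-2 gene of the list, Tfap2c, had set means of 8.95, 12.2 and 6.48 and did not pass (0.69, SE 0.23, adjusted p = 0.19). C1ql1, a secreted protein of the complement family that is not a factor but stands on the amacrine list, was lower as well, with set means of 17.4, 14.4 and 92.9 (-2.55, SE 0.40). Meis2 and Lhx9, homeodomain factors, had set means of 8.87, 11.2 and 27.2 (-1.45, SE 0.31) and of 6.61, 7.87 and 18.5 (-1.36, SE 0.27). Neurod1 was called lower only through Ier5: it read 242, 189 and 317 in Fam81a and 180, 122 and 143 in Arc 1st, and lay under the floor on all 3 Ier5 arrays, where its level carries no order. Raised to the floor, Neurod1 in Ier5 was at least 5.20 log2 units below Arc 1st.

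Genes known from AII cells did not move as a block. Of 13 listed genes 11 were tested without Slc6a9. Of these, 5 were higher (Nfix, Nfib, Calb2, Lgr5 and Prox1) and Gria3 was lower, against 2.08% called among all tested genes. The median difference over the list was 1.14 log2 units. Lgr5, a receptor for R-spondins, read 16.1, 12.5 and 13.2 in Fam81a, 12.4, 25.3 and 47.9 in Ier5 and 5.50, 5.33 and 6.03 in Arc 1st (1.72, SE 0.34, adjusted p = 0.029). Gjd2, the connexin of the gap junctions of AII cells, read 106, 82.8 and 99.8 in Fam81a, 10.3, 9.55 and 20.8 in Ier5 and 9.23, 9.89 and 46.7 in Arc 1st. It was bright in Fam81a alone, did not pass in the mean of both lines (1.10, SE 0.50, adjusted p = 0.35), and its difference between Fam81a and Ier5 did not pass either (2.91, adjusted p = 0.086). Dab1, the adaptor of reelin signalling labelled in AII cells, was above Arc 1st on all 6 arrays with set means of 39.5, 42.6 and 11.8 but missed the threshold (1.80, SE 0.40, adjusted p = 0.051). Car2, a carbonic anhydrase, had set means of 410, 78.1 and 270, so that Arc lay between the lines. A list drawn up for other glycinergic types gave 3 higher and 1 lower of 9 tested, with a median of 0.95 log2 units. It also holds Neurod6, described below, which was tested but not called, so the 9 tested are not glycinergic genes alone. Tcf4, a helix-loop-helix factor, read 41.6, 27.3 and 26.0, then 47.0, 58.7 and 60.9, against 9.57, 13.5 and 10.6 (1.90, SE 0.23). Ppp1r17, a phosphatase inhibitor, was dim, with set means of 11.4, 12.8 and 5.21 (1.22, SE 0.25, adjusted p = 0.037). Its call was lost with no filter (adjusted p = 0.052) and with Fam81a or Ier5 alone (adjusted p = 0.11 and 0.053). Neurod6, a factor known from amacrine cells that lack the markers of both transmitters, read 8.68, 58.2 and 119 in Ier5 and between 2.18 and 6.87 on the other 6 arrays, and did not pass (adjusted p = 0.31).

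Of 15 tested genes of calcium-binding proteins, 6 were higher and 2 lower, with a median difference of 0.74 log2 units, against 2.08% of all tested genes called in either direction. Beside Calb2, Calb1 and Hpca, the higher genes were Cabp1, Hpcal1 and Necab3. Cabp1, a modulator of calcium channels and sensors, read 157, 127 and 102 in Fam81a, 176, 143 and 108 in Ier5 and 32.4, 25.3 and 57.8 in Arc 1st (1.88, SE 0.31). Hpcal1 and Necab3, both calcium sensors, had set means of 25.9, 26.6 and 5.58 (2.23, SE 0.41) and of 42.9, 50.05 and 12.3 (1.91, SE 0.27). The lower genes were Pcp4, which speeds calcium exchange on calmodulin, and Vsnl1, a visinin-like sensor. Pcp4 read 124, 86.2 and 102 in Fam81a, 1238, 768 and 467 in Ier5 and 1789, 1841 and 1372 in Arc 1st (-2.56, SE 0.28, adjusted p = 0.00094), so Ier5 lay much closer to Arc than Fam81a did. Vsnl1 had set means of 28.1, 18.2 and 61.1 (-1.43, SE 0.28).

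Among ion channels, 3 of 60 tested potassium channel genes were called, against 2.08% of all tested genes. Kcnmb4 was higher, and Kcnip1 and Kcna5 were lower. Kcnip1, a partner of transient potassium channels, read 10.4, 10.1 and 7.82 in Fam81a, 28.3, 7.04 and 6.56 in Ier5 and 132, 84.1 and 77.0 in Arc 1st (-3.23, SE 0.43). Kcna5, a delayed rectifier, had set means of 224, 58.3 and 380 (-1.74, SE 0.31), again with Fam81a between Ier5 and Arc. Cacna2d3 was the only call among 10 tested genes of sodium, calcium and cyclic nucleotide-gated channels. Among 22 tested ionotropic glutamate receptor genes and their partners, Gria3, Grik1 and Neto2 were lower and none was higher. Neto2, which sets the kinetics of kainate receptors, read 4.31, 4.04 and 4.62, then 4.54, 4.89 and 8.17, against 26.8, 57.2 and 50.7 in Arc 1st (-3.11, SE 0.27, adjusted p = 0.00023). Gria3, an AMPA receptor subunit, had set means of 19.1, 15.3 and 64.4 (-1.91, SE 0.28), and Grik1, a kainate receptor subunit, had 5.91, 5.63 and 11.5 (-1.001, SE 0.20). The kainate subunit and its partner thus lay on the same side.

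Of 26 tested neuropeptide and cerebellin genes, Cartpt, Cbln1 and Cbln2 were lower, Cck was higher and 22 were not called. Over all tested genes 2.08% were called in either direction. The median difference over the list was 0.080 log2 units. Cartpt, the precursor of CART peptides, was bright everywhere, at 241, 449 and 376 in Fam81a, 316, 283 and 226 in Ier5 and 1884, 1682 and 992 in Arc 1st (-2.26, SE 0.26, adjusted p = 0.0014). Cck, the precursor of cholecystokinin, read 5.16, 4.58 and 4.05 in Fam81a, 197, 194 and 245 in Ier5 and 8.32, 14.2 and 4.32 in Arc 1st. Its call (1.96, SE 0.32, adjusted p = 0.011) came from Ier5, since Fam81a lay 0.80 log2 units below Arc 1st (-0.80) and its arrays overlapped those of Arc. Sstr2, a somatostatin receptor, was the only call among 9 tested peptide receptors: it read 17.9, 30.0 and 22.4, then 21.0, 6.89 and 10.6, against 151, 140 and 136 (-3.13, SE 0.33). Adra2c, an inhibitory adrenergic receptor, was the only call among 18 tested amine receptors, at set means of 9.79, 8.08 and 18.8 (-1.08, SE 0.23, adjusted p = 0.043), and Gjc1, a neuronal connexin, the only one among 9 tested connexins, at 13.2, 12.7 and 50.8 (-1.97, SE 0.18).

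At the synapse and cell surface 1 to 3 genes passed in the lists of vesicle fusion, cadherins, guidance and recognition, where 2.08% of all tested genes did. Of 32 tested genes of vesicle fusion, Sv2b, a synaptic vesicle protein, was higher with set means of 10.8, 13.8 and 5.89 (1.06, SE 0.19), and Snap25 and Syt10 were lower. Snap25, a core protein of vesicle fusion, read 170, 155 and 124, then 159, 127 and 156, against 324, 324 and 315 (-1.12, SE 0.19). Syt10, a calcium sensor of vesicles, was dim, at 6.09, 4.58 and 12.6 (-1.17 raised to the floor, SE 0.27). Pcdh19 was the only call among 20 tested cadherins, at 18.2, 25.5 and 53.8 (-1.32, SE 0.27), and Sema6a, a transmembrane semaphorin, the only one among 33 tested guidance genes, at 9.58, 12.6 and 27.0 (-1.29, SE 0.21). Cntn6, a contactin, was the only one among 37 tested recognition molecules: it read 25.4, 7.15 and 13.8 in Fam81a, 19.5, 87.8 and 90.4 in Ier5 and 3.98, 4.65 and 6.14 in Arc 1st (2.48, SE 0.52, adjusted p = 0.038). Cntn6 varied widely within both lines. In 6 of the 22 function lists no gene was called by limma: GABA-A, glycine, metabotropic glutamate and nicotinic receptors, the respiratory chain and ribosomal proteins. Of their 136 tested genes 14 had an unadjusted p below 0.05, against 1603 of all 11211 tested genes.

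**Figure D3:**
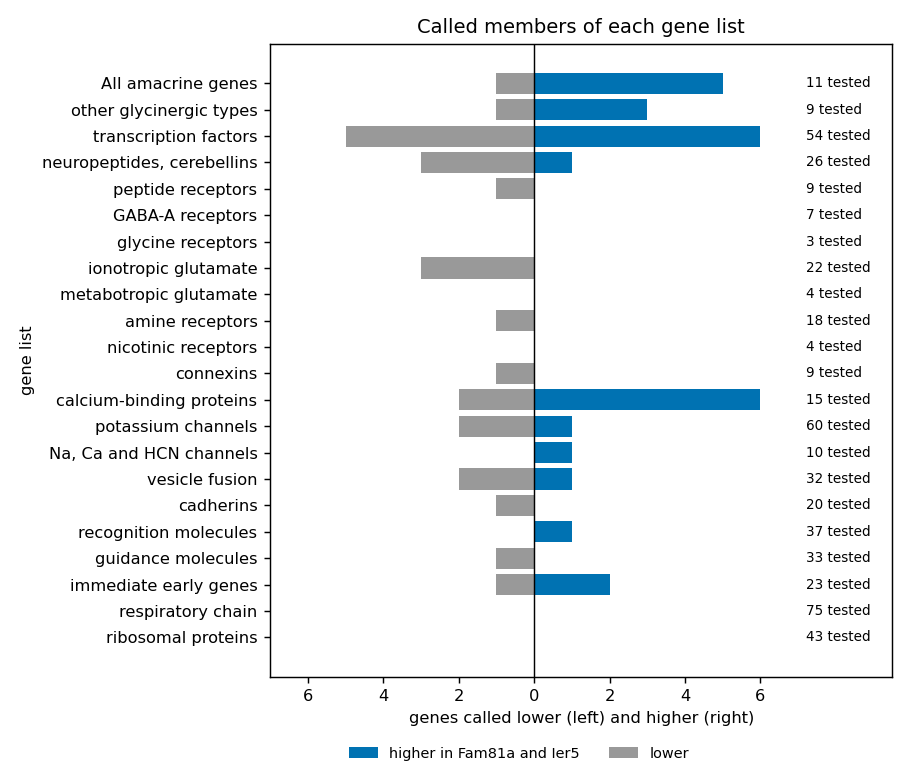
Number of called genes in each of the 22 function lists, with genes lower in Fam81a and Ier5 to the left and higher to the right; the number of tested members stands at the right edge. Transcription factors (6 and 5 of 54) and calcium-binding proteins (6 and 2 of 15) hold the most calls, and 6 lists hold none. A gene can stand in more than 1 list, and the list of other glycinergic types also holds Neurod6.

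The genes that name the lines were read as a check of the labels. Arc, an activity-regulated gene of the synapse, read 27.7, 25.5 and 32.2 in Arc 1st and between 7.97 and 14.5 on the 6 other arrays (-1.32, SE 0.22, adjusted p = 0.011). Ier5, an immediate early gene, read 87.0, 188 and 156 in its own line, 40.4, 65.1 and 67.2 in Fam81a and 31.3, 13.9 and 26.7 in Arc 1st (1.95, SE 0.35, adjusted p = 0.020). Fam81a read 18.2, 24.7 and 20.8 in its own line, against 6.94 to 9.24 in Ier5 and 6.54 to 9.25 in Arc 1st. Each was highest in the line that bears its name, and in the mean of both lines Fam81a did not pass (0.68, adjusted p = 0.10). Of 23 tested immediate early genes, Ier2 and Ier5 were higher and Arc lower, against 2.08% called among all tested genes. Ier2 read 97.3, 50.8 and 66.2, then 86.2, 92.6 and 99.7, against 15.5, 9.66 and 12.8 in Arc 1st (2.68, SE 0.26, adjusted p = 0.00051). The list also holds genes that respond to dissociation, whose part in the result was not tested.

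Markers of other cells moved with the comparison at a few places. Of 13 lists of such markers, 10 held no call by limma. Of their 41 tested genes 4 had an unadjusted p below 0.05, against 1603 of all 11211 tested genes. Glul and Clu of the Müller glia list were lower, with set means of 18.9, 21.8 and 102 (-2.33, SE 0.51) and of 85.6, 80.9 and 380 (-2.19, SE 0.40). The summed level of the 12 Müller genes was 824 to 1054 in Fam81a, 590 to 1052 in Ier5 and 1155 to 1438 in Arc 1st. The defining gene Rlbp1 had set means of 10.6, 8.35 and 10.7, but single arrays stood apart. It read 51.0 on the Ier5 array 2, 1.31 on the Ier5 array 1 and 28.2 on the Arc 1st array 1. Nefm and Nefl, neurofilament subunits on the ganglion cell list, were higher, with set means of 40.2, 73.6 and 9.93 (2.45, SE 0.24) and of 46.6, 38.9 and 9.38 (2.18, SE 0.31). Nefh, the heavy subunit, was lower, at 9.56, 10.3 and 36.2 (-1.87, SE 0.30). The summed level of the 11 ganglion cell genes was 260.3 to 299.7 in Fam81a, 435 to 455 in Ier5 and 263 to 323 in Arc 1st, with Rbpms at set means of 7.88, 9.95 and 8.35 and Pou4f1 at 5.10, 4.97 and 5.01. The horizontal cell list gave Calb1 higher and Septin4 lower (141, 61.4 and 282; -1.60, SE 0.32). The part of these cells in the result was not tested.

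Calls of smaller differences depended on single arrays. Of the 75 called genes named here, 24 were no longer called when 1 of the 9 arrays was left out, with limma adjusted p up to 0.188, and none of these was among the 24 largest differences. Their differences kept their direction and moved by at most 5.79% (Snap25) to 27.4% (Lhx9) when 1 array was left out; Glul, for example, ranged from -2.70 to -2.04. Arc, Cabp1, Clu, Hpcal1, Ier5, Kcna5, Neurod2, Sema6a, Snap25, Sv2b and Vegfc lost the call on removal of 1 to 4 different arrays. Adra2c, Cntn6, Glul, Grik1, Lgr5, Lhx9, Meis2, Pcdh19, Ppp1r17, Prox1, Septin4, Syt10 and Vsnl1 lost it on removal of 5 to 8. With no brightness filter 8 of the 75 lost the call: Adra2c, Cntn6, Glul, Meis2, Pcdh19, Ppp1r17, Prox1 and Syt10.

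The 2 lines with raised Slc6a9 were not alike. Between Fam81a and Ier5 37 tested genes were called (0.33%), 22 higher and 15 lower in Fam81a, and 16 of the 233 genes called against Arc 1st were among them. Drd4 and Neurod1 lay under the floor on all 3 Ier5 arrays, so both differences are bounds. Their adjusted p belongs to the deposited differences of 11.74 and 11.31, which rest on values under the floor that carry no order. Drd4, a dopamine receptor also known from photoreceptors, read 337, 151 and 291 in Fam81a and was at least 5.94 log2 units higher there than in Ier5 (limma adjusted p = 0.027). In Arc 1st it read 25.9 on array 3 and lay under the floor on the other two, and it did not pass against Arc 1st (adjusted p = 0.76). Neurod1 was at least 5.93 log2 units higher in Fam81a (adjusted p = 1.3e-06). Actc1, a muscle actin, read 398, 431 and 422 in Fam81a, between 9.001 and 12.7 in Ier5 and between 10.6 and 11.9 in Arc 1st, and differed by 5.20 between the lines (adjusted p = 5.3e-06). Its call against Arc 1st (2.64, SE 0.21) therefore came from Fam81a. In the other direction, Cck differed by -5.53 (adjusted p = 0.00015), Kcnmb4 by -4.15 (adjusted p = 0.00023), Pcp4 by -2.89 (adjusted p = 0.0050), Six2 by -2.09 and Hsd11b1 by -1.88. Six2, a homeodomain factor, read 11.4, 11.8 and 8.32 in Fam81a, 43.0, 38.2 and 52.0 in Ier5 and between 6.25 and 7.25 in Arc 1st. Hsd11b1, which regenerates active glucocorticoid, read 19.1, 21.4 and 23.5 on the Ier5 arrays and at most 6.26 on the other 6. Tfap2b, Calb1 and Car2 were higher in Fam81a than in Ier5 by 2.09, 2.20 and 2.39. Over all genes, the median correlation between arrays was 0.953 within Fam81a, 0.911 within Ier5 and 0.942 within Arc 1st, and arrays of Fam81a correlated with those of Ier5 at 0.914, Fam81a with Arc 1st at 0.925 and Ier5 with Arc 1st at 0.902. Values under the floor, which carry no order of level, entered these correlations as deposited. Fam81a arrays correlated slightly more with Arc 1st than with Ier5, and Ier5 arrays more with Fam81a than with Arc 1st. How far values under the floor set these small gaps was not tested. Ier5 arrays correlated no more with each other than with Fam81a, so the spread within Ier5 limits what this measure separates.

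**Figure D4:**
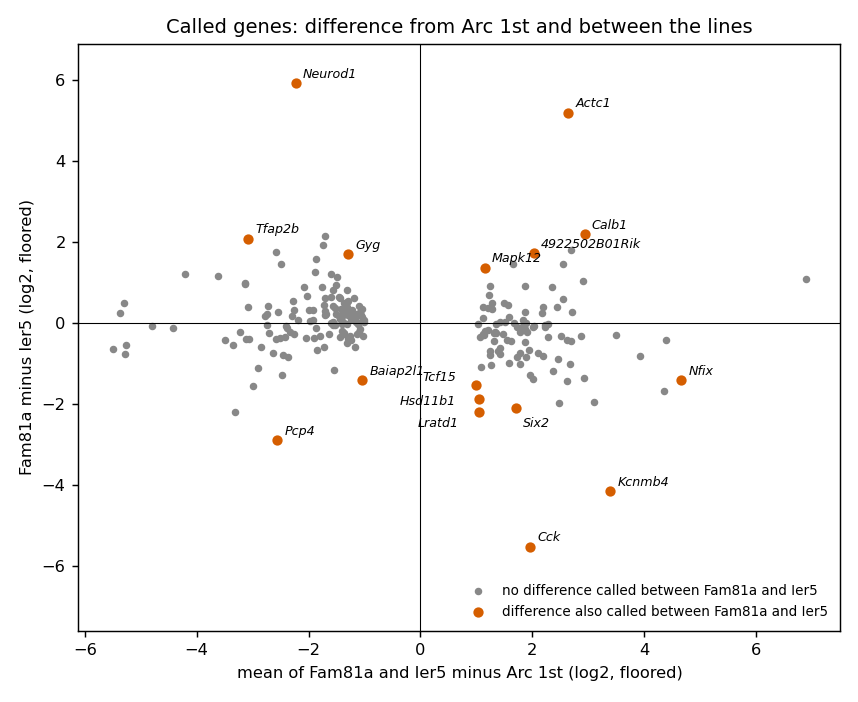
Each point is 1 of the 233 called genes, placed by its difference between the mean of Fam81a and Ier5 and Arc 1st (x axis) and by its difference between Fam81a and Ier5 (y axis), both in log2 units with values raised to the floor. The 16 orange, named genes were also called between the lines; Neurod1 at 5.93 and Cck at -5.53 lie farthest from 0.

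Several secreted factors and regulators beyond the lists were higher in the mean of both lines and were picked after their values were seen. Others were called lower, among them Vegfd (-1.99), Tgfb3 (-1.40) and Stc1 (-2.91), each raised to the floor. Ptgds, which makes prostaglandin D, read 199, 125 and 130 in Fam81a, 53.7, 17.8 and 79.8 in Ier5 and 12.1, 12.9 and 11.7 in Arc 1st (2.70, SE 0.42, adjusted p = 0.0086). Vegfc, a growth factor of lymphatic vessels, had set means of 103, 37.4 and 10.7 (2.54, SE 0.44), Tgfb2 had 37.7, 28.5 and 7.19 (2.19, SE 0.23) and Igf1, an insulin-like growth factor, had 108, 39.3 and 20.6 (1.66, SE 0.27). All of these were higher in Fam81a than in Ier5 on the level of set means, although none of these differences passed between the lines. In Ier5 alone against Arc 1st, Ptgds (1.79, adjusted p = 0.10), Vegfc (1.81, adjusted p = 0.12) and Igf1 (0.93, adjusted p = 0.18) did not pass, while Tgfb2 did. Zic4, a zinc finger factor, read 102, 67.2 and 84.7, then 101, 61.4 and 41.2, against 10.3, 14.1 and 16.5 (2.44, SE 0.31, adjusted p = 0.0026).

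The same Arc line was measured again in 2 further sets, which were not used to choose the arrays. Arc 2nd carries no batch label and Arc 3rd is labelled batch 3, so batch and line cannot be told apart in that comparison, and it shares the 6 Fam81a and Ier5 arrays. Slc6a9 had set means of 7.39 and 8.40 there and Gad1 of 166 and 272. For 22 of the 24 genes with the largest differences, the 6 later Arc arrays lay outside the range of the 6 Fam81a and Ier5 arrays, for 10 of the 12 higher and all 12 of the lower genes. The exceptions were Crabp1, which reached 331 on a later Arc array, and Kcnmb4, which reached 23.2. The 24 genes had been chosen by their values on the same 6 Fam81a and Ier5 arrays. The share over all tested genes was not counted, so the 22 cannot be set against it. Levels in the later sets were often lower for the genes of Arc: Ucma had set means of 102 and 65.6 against 230 in Arc 1st, Wfikkn2 129 and 110, and Cbln2 323 and 227 against 836. Sstr2 went the other way, at 258 and 521 against 142, as did Pantr1, at 434 and 479 against 236. The neuropeptide gene Npy, not called against Arc 1st, had set means of 520 and 694 in the later sets and 21.7 in Arc 1st. With these sets in place of Arc 1st, limma called 121 genes higher and 270 lower, of which 64 and 96 were among the 98 and 135.

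The 24 genes were also read in the 6 other amacrine lines of the series, as set means and without a test. They had been chosen by their values on the arrays compared. No share over all tested genes was counted for these lines. In Fbxo32, with Slc6a9 at 150, all 12 higher genes had a mean at or above the lowest of the 6 Fam81a and Ier5 arrays. In Chrna3, with Slc6a9 at 36.2, 10 of the 12 did, the exceptions being Calb2 (41.0) and Lamp5 (30.8). Spink13 had set means of 532 in Chrna3 and 428 in Fbxo32, and between 3.67 and 9.03 in Igfbp2, Rgs5, Crh and ChAT. Nfix stood at 1167 and 1072 in Chrna3 and Fbxo32 and at 15.2 to 34.0 in the other 4 lines, where Slc6a9 lay between 7.49 and 13.1. Not every gene followed Slc6a9: Calb2 reached 1013 in Crh and 1133 in ChAT, and Kcnmb4 reached 524 in ChAT. Of the 12 lower genes, 11 had a mean at or below the highest of the 6 arrays in ChAT, the cholinergic starburst line. In the lines with raised Slc6a9 fewer did, 6 in Fbxo32 and 5 in Chrna3, against 6 in Crh and 4 in Rgs5. In Igfbp2 none of the 12 did, with Cbln1 at 119, Clmp at 116 and Cbln2 at 372, although Pantr1 stood at 12.8 there and at 761 in Rgs5. Chrna3 is labelled batch 2, Igfbp2, Rgs5 and Crh batch 3, ChAT batch 1, and Fbxo32 has no batch label, so these levels mix line and batch.

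**Figure D5:**
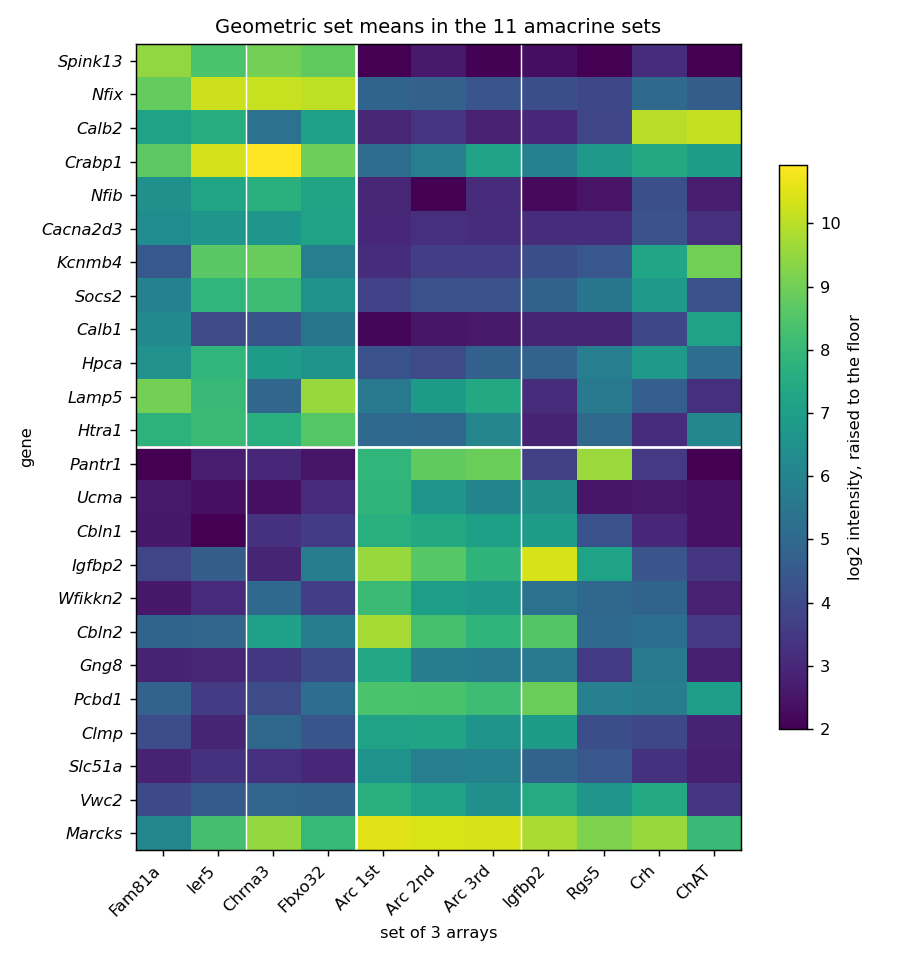
Geometric set means (log2 intensity raised to the floor, colour scale) of the 24 genes with the largest differences in the 11 amacrine sets of 3 arrays each. Chrna3 and Fbxo32 share high Spink13 and Nfix with Fam81a and Ier5, and in the later Arc sets and Igfbp2 the 12 genes of Arc 1st all lie above the 6 Fam81a and Ier5 arrays, although in Arc 2nd, Arc 3rd and Igfbp2 only 4, 2 and 4 of them reach the lowest Arc 1st array; Pantr1 is at 12.8 in Igfbp2.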

How the data were processed

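The deposited table holds 1 linear intensity per probe set and array, from 0.0238 to 5770. Per the submitters' processing notes the tools were oligo and RMA under R 2.11.1, with build mm9; settings are not given in the sources used here. The plan assumed log2 values, so log2 was taken of them. The sorted values of all 78 columns are identical (largest difference 0), and precision is limited by how few arrays a set has. Of 22347 probe sets, 19446 have 1 gene symbol in the platform table, 735 have several and 2166 are not listed; 19368 were matched by Entrez identifier. The brightest probe set of a gene was kept.

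The lowest values of an array stand in order of probe set identifier and carry no order of level. The highest such value on any array, 3.99, was taken as the floor; 10.5% of values lie at or below it. Differences were computed on deposited values and again with values raised to the floor, and a call needed 1 log2 unit on both. Differences in the text are those of deposited values unless said to be raised to the floor, and single-line differences are floored. SE and adjusted p come from the fit to deposited values throughout. With values raised to the floor in the fit itself, all 75 named called genes kept their call against Arc 1st.

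Linear models were fitted with limma 3.58.1 in R 4.3.3 (moderated statistics with a trend) to the 9 arrays, with 1 mean per set, and the unweighted mean of the Fam81a and Ier5 means was set against Arc 1st. Set means are geometric. p-values were adjusted by Benjamini-Hochberg over all 11214 genes above the brightness limit, and they measure the spread between arrays of a set. Slc6a9, Gad1 and Gad2 were taken out of the counts, leaving 11211, after the counts with them had been seen; 8087 dim genes were not tested. At an unadjusted p below 0.05 stood 1603 genes, and 267 at an adjusted p below 0.05.

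The arrays and gene lists were chosen with earlier results of these data known. Named genes are the 12 largest called differences in each direction with separated arrays, up to 4 called members per list, exceptions, the driver and transmitter genes and the brightest markers; Nr2f2, Neurod4, Neurod1, Drd4, Neurod6, Prox1, Lgr5, Meis2, Lhx9, Pou3f3, Cabp1, Hpcal1, Necab3, Vsnl1, Ptgds, Vegfc, Tgfb2, Igf1, Zic4, Six2, Hsd11b1, Actc1, Gjd2, Dab1 and the defining markers were picked after their values were seen. The model was tested on simulated data. Alternatives covered the filter, floor, normalization, probe set choice, arrays in the fit, replicate block, each replicate left out, each line alone and the later Arc sets. Figures used matplotlib 3.10.9, pandas 2.3.3 and numpy 2.4.6 in python 3.11.15.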

Additional observations from a re-analysis of the deposited data

Results flagged for a closer look

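Several genes differed between the Fam81a and Ier5 lines by limma's test of that difference over all genes, so their mean over both lines does not describe either line. Values are Fam81a minus Ier5 in log2 units, raised to the floor, while the test used deposited values. Higher in Fam81a were Drd4 (5.94), Neurod1 (5.93), Actc1 (5.20), Car2 (2.39), Calb1 (2.20), Tfap2b (2.09) and Fam81a itself (1.35). Higher in Ier5 were Cck (-5.53), Kcnmb4 (-4.15), Pcp4 (-2.89), Six2 (-2.09), Hsd11b1 (-1.88) and Nfix (-1.41). Drd4 and Neurod1 lay under the floor on all 3 Ier5 arrays, so their values are lower bounds. With 3 arrays per set, single arrays were not screened as outliers.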

How the results depend on the processing

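Against 98 higher and 135 lower genes, leaving out each replicate in turn gave 55 to 100 higher and 86 to 132 lower genes. Fam81a alone against Arc 1st gave 59 higher genes. The later Arc sets in place of Arc 1st, in a fit to all 78 arrays, gave 270 lower ones. The replicate block, used although arrays with the same number did not deviate together (mean r -0.023 over 9 pairs, 0.011 over 18 pairs of different numbers), gave 77 higher and 106 lower genes. The other alternatives kept both counts within 1.5 times. Between Fam81a and Ier5, where 22 genes were higher and 15 lower, leaving out a replicate gave 6 to 16 and 6 to 12, the replicate block gave 8 and 8, and all 78 arrays gave 40 and 35, while no filter gave 13 higher. Of 75 named called genes 38 kept their call under every alternative in which they were tested. Neurod1 (0.74) and Cck (-0.80) turned in direction with Fam81a alone. With 3 arrays per set, a call near the threshold, such as Prox1 or Grik1, rests on few arrays, and low intensities near the floor give only bounds.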
